A study of Mus musculus with 8 samples.

Results

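The peaks described here are gene-near intergenic sites from HA ChIP-seq of tagged EHMT2 in mESCs (mouse embryonic stem cells). A peak was a member when its summit lay outside every GENCODE gene, more than 1 kb and up to 100 kb from the nearest transcript start, and outside soft-masked (repeat-annotated) runs of 5 kb or more. Of the 70200 peaks in 4 lists, 24026 met this rule. There were 4038 members of 11010 peaks in the C29F4 list, 15517 of 40816 in the ab9110 DMSO list, 3862 of 16324 in the ab9110 dTAG list and 609 of 2050 in the dTAG input list. The label was checked against a second annotation: a RefSeq transcript start lay within 1 kb of the summit in 1.68% of C29F4, 2.50% of ab9110 DMSO, 3.73% of ab9110 dTAG and 3.12% of input members, against 1.18% of gene-near intergenic sequence. The RefSeq starts used did not include tRNA genes, so members at such genes could not be found by this check.

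The cells were EHMT2-dTAG-mcherry ESCs on a BL6/129 hybrid background, in which the endogenous Ehmt2 gene carries a degron, a hemagglutinin (HA) tag and an mCherry reporter in every sample, controls included. All 8 samples were treated for 24 h. For antibody C29F4 against HA, DMSO-treated cells gave 2 ChIP and 2 input samples, and both ChIP samples, from independent clones, were merged into 1 list. For ab9110, also against HA, DMSO-treated and dTAG-treated cells each gave 1 ChIP and 1 input sample. dTAG is the degrader that removes the tagged protein. Input is sonicated chromatin without pulldown. Its list, from the dTAG input alone, gives the peaks called in such chromatin and not the background of the other lists. C29F4 and ab9110 DMSO thus differ in antibody, experiment and number of libraries at once, and possibly in clones, which cannot be told apart. With 1 list per condition no difference between lists has a replicate check, and all intervals below are exact 95% binomial (Clopper-Pearson) intervals that cover counting error only.

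EHMT2 (also called G9a) forms a complex with EHMT1 and places H3K9me2, a mark of repressed chromatin, over broad domains. The complex has no well-defined DNA sequence of its own and is brought to chromatin by DNA-binding proteins. One such protein is REST, which binds a bipartite element near neuronal genes and recruits histone-modifying enzymes in non-neuronal cells. Intergenic sequence near genes holds many distal enhancers and silencers. In mESCs these are bound by pluripotency factors such as OCT4, SOX2, ESRRB and KLF proteins, and by YY1 and CTCF.

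To show what the members look like, the strongest sites of each kind are given as 201 bp around the summit (mm10, plus strand, RefSeq copy of the assembly). Capitals mark matches of the searched motifs on either strand. The first 2 are the C29F4 members of highest fold among those that met a DMSO peak of ab9110 but no dTAG or input peak, shown because both antibodies called them and none was called with the degrader.
Member upstream of Gm49460, chr15:72568643-72568843: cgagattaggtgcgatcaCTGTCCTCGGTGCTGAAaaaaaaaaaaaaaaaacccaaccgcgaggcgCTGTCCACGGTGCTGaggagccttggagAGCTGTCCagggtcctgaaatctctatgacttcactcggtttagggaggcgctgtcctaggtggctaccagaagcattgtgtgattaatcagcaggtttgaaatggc
Member upstream of Igsf21, chr4:140259083-140259283: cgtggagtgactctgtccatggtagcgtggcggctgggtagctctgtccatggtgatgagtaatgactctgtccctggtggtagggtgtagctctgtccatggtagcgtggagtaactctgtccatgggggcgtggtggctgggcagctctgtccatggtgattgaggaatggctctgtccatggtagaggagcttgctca
The first holds the REST core and both arms of the REST element. The letters CTGTCC, one end of the REST core, were counted on both strands after these sequences were seen. There were 4 copies in the first window and 7 in the Igsf21 window, where they recur as a tandem array without a full core.

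The next 2 are among the strongest C29F4 members by fold that met a peak in each ab9110 ChIP list but none in the input, shown because they kept a call with the degrader.
Member upstream of Ndn, chr7:62335226-62335426: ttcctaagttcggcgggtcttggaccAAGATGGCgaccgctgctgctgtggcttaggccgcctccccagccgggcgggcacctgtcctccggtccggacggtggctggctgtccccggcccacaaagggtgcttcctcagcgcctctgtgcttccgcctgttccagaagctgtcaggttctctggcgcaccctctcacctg
Member upstream of Tsg101-ps, chr15:62959229-62959429: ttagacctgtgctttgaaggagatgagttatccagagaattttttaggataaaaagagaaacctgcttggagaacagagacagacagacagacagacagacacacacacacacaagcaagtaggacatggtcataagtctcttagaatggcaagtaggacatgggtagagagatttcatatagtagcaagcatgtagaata
The Ndn window is rich in CpG (14 copies) and holds a YY1 match, and the Tsg101-ps window holds short runs of CA and CAGA. Soft-masked bases made up 100% and 48.8% of them.

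The 3 strongest members found in the ab9110 dTAG list and in no other list follow.
Member upstream of 2310047D07Rik, chr5:149229029-149229229: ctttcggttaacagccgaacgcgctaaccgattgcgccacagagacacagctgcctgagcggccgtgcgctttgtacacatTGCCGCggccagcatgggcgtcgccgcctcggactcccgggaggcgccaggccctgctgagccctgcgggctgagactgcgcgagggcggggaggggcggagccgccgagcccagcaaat
Member upstream of Gm47564, chr9:14174242-14174442: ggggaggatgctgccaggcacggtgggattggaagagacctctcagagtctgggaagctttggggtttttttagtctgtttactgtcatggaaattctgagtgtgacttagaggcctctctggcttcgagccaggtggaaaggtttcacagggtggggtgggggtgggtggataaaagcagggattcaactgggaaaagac
Member upstream of Plcl2, chr17:50427722-50427922: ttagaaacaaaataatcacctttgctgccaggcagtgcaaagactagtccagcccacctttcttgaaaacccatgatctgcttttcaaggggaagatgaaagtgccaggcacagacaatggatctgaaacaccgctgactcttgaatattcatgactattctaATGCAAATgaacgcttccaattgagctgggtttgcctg
Their CpG counts were 24, 2 and 2, and they held a ZFP57 match, no match and an octamer match. The single strongest members of the ab9110 DMSO list alone, of the input list and of the C29F4 list alone are shown for comparison.
ab9110 DMSO member downstream of Gm44301, chr2:172204739-172204939: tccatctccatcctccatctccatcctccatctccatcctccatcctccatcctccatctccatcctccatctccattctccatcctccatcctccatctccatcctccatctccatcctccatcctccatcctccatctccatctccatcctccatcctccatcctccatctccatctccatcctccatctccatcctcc
Input member upstream of Gm4916, chrX:128363603-128363803: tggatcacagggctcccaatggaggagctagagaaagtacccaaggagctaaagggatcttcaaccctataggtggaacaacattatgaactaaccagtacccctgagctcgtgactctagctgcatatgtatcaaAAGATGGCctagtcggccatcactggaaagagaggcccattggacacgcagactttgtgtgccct
C29F4 member upstream of Gm9701, chr3:62938762-62938962: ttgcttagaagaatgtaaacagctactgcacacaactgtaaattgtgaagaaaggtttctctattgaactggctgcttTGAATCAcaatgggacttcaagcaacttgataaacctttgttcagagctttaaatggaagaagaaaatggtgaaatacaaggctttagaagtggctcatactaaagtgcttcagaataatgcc
The ab9110 DMSO window is a simple repeat throughout, and the input window was 100% soft-masked.

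Gene-near intergenic sequence, as the rule defines it, made up 42.2% of the assembled bases (1120 Mb). Members were 36.7% (35.8 to 37.6%) of the peaks in the C29F4 list. In ab9110 DMSO the share was 38.0% (37.5 to 38.5%), in ab9110 dTAG 23.7% (23.0 to 24.3%) and in the input 29.8% (27.8 to 31.8%). None of these shares reached the share of the genome. The dTAG list had the smallest share, and 43.7% of its peaks lay within 1 kb of a start, against 6.80% in C29F4 and 16.5% in ab9110 DMSO. Per Mb of gene-near intergenic sequence there were 3.62 C29F4, 13.9 ab9110 DMSO, 3.46 ab9110 dTAG and 0.546 input members.

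**Figure D1:**
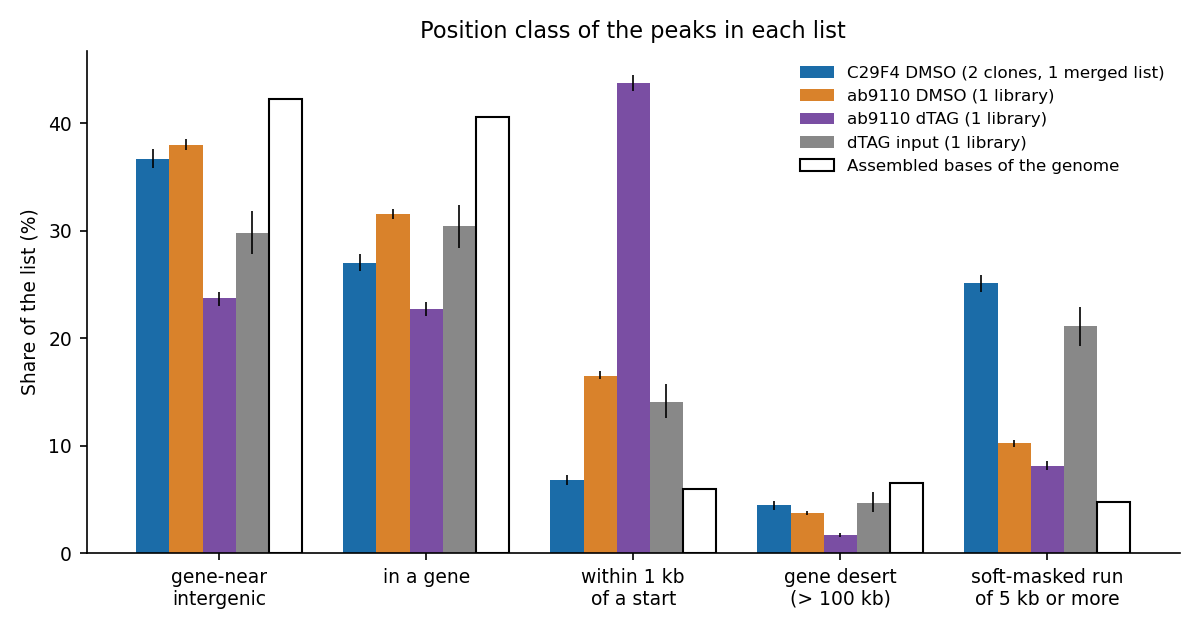
Share of each list's peaks (y axis, percent) in 5 position classes (x axis). Coloured bars are the 4 lists with exact 95% counting intervals, and white bars the share of assembled bases. Gene-near intergenic peaks made up 36.7% (C29F4), 38.0% (ab9110 DMSO) and 23.7% (ab9110 dTAG), all below the 42.2% of the genome.

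C29F4 members were weaker and narrower than the C29F4 peaks in long soft-masked runs, whose median fold was 4.88 and median width 1090 bp. They had a median fold enrichment of 3.57 (quartiles 3.02 and 4.31, highest 27.0), a median width of 456 bp and a median of 25 fragments at the summit over a background of 5.96. C29F4 peaks in genes had like medians, 3.53 and 433 bp, as had those in gene deserts, 3.67 and 451 bp. Those within 1 kb of a start had 3.35 and 459 bp. ab9110 DMSO members had a median fold of 3.29 (3.09 to 3.86), a width of 404 bp and 12 fragments. ab9110 dTAG members had a median fold of 3.69 (3.57 to 4.13), a width of 430 bp and 9 fragments. Input members had a median fold of 4.55, a width of 202 bp and 9 fragments. Folds rest on the background used by the peak caller, here taken as that of each library itself, since whether an input control entered the calls was not given in the sources used here. The mean coverage solved from the lists was 3.64, 2.11, 1.23 and 0.980 fragments in the same order, so folds rank members within a list and not between lists. The lowest count at a dTAG member's summit was 7 fragments, and sites under the caller's threshold were not detectable at this depth.

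Which members were seen with both antibodies in cells that hold EHMT2 was asked by overlap of at least 1 bp. Of the C29F4 members, 2510 overlapped an ab9110 DMSO peak (62.2%, 60.6 to 63.7%), against 67.0% of all C29F4 peaks. Of the ab9110 DMSO members, 2469 overlapped a C29F4 peak (15.9%, 15.3 to 16.5%), against 18.1% of all peaks of that list. Input peaks were met by 19 C29F4 members (0.471%), 38 ab9110 DMSO members (0.245%) and 4 ab9110 dTAG members (0.104%), against 0.981%, 0.625% and 0.643% of the whole lists.

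Whether a site keeps its HA signal when EHMT2 is degraded was asked with the ab9110 dTAG list. Of the C29F4 members, 650 overlapped a dTAG peak (16.1%, 15.0 to 17.3%), against 21.7% of the whole list. Sorted by both ab9110 lists, 1902 C29F4 members (47.1%, 45.6 to 48.7%) had a DMSO call but no dTAG call, against 46.1% of the whole list. A further 608 (15.1%, 14.0 to 16.2%) were called in both, against 20.8%. In neither were 1486 (36.8%, 35.3 to 38.3%), against 32.2%, and 42 were in dTAG alone. The 47.1% was thus near the share among all C29F4 peaks and is no result about the members. Scaling the DMSO list to the coverage of the dTAG library lowered it to 29.3%, against 30.1% of the whole list under the same scaling. Then 42.7% of C29F4 members overlapped a DMSO peak, against 49.4% of the whole list.

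Seen from the ab9110 lists, 1749 ab9110 DMSO members overlapped a dTAG peak (11.3%, 10.8 to 11.8%), against 18.9% of all DMSO peaks. Peaks of that list within 1 kb of a start overlapped a dTAG peak in 49.7% of cases, those in genes in 11.3% and those in long soft-masked runs in 26.2%. Gene-near intergenic and genic peaks thus had like shares, both under that at starts. The 11.3% became 23.9% with lists of equal size, against 34.2% of the whole list, and 28.7% with the DMSO list scaled to the dTAG coverage, against 38.8%. In the other direction, 1724 ab9110 dTAG members overlapped a DMSO peak (44.6%, 43.1 to 46.2%), against 46.8% of the whole list. The 44.6% became 35.2% with lists of equal size, against 34.7% of the whole list, and 31.4% with the scaled DMSO list, against 30.0%. It became 70.3% (643 of 915) with q-values under 0.001 in both lists, against 51.7% of the whole list. Of all dTAG members, also 643 overlapped a C29F4 peak (16.6%, 15.5 to 17.9%), against 14.8%.

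**Figure D2:**
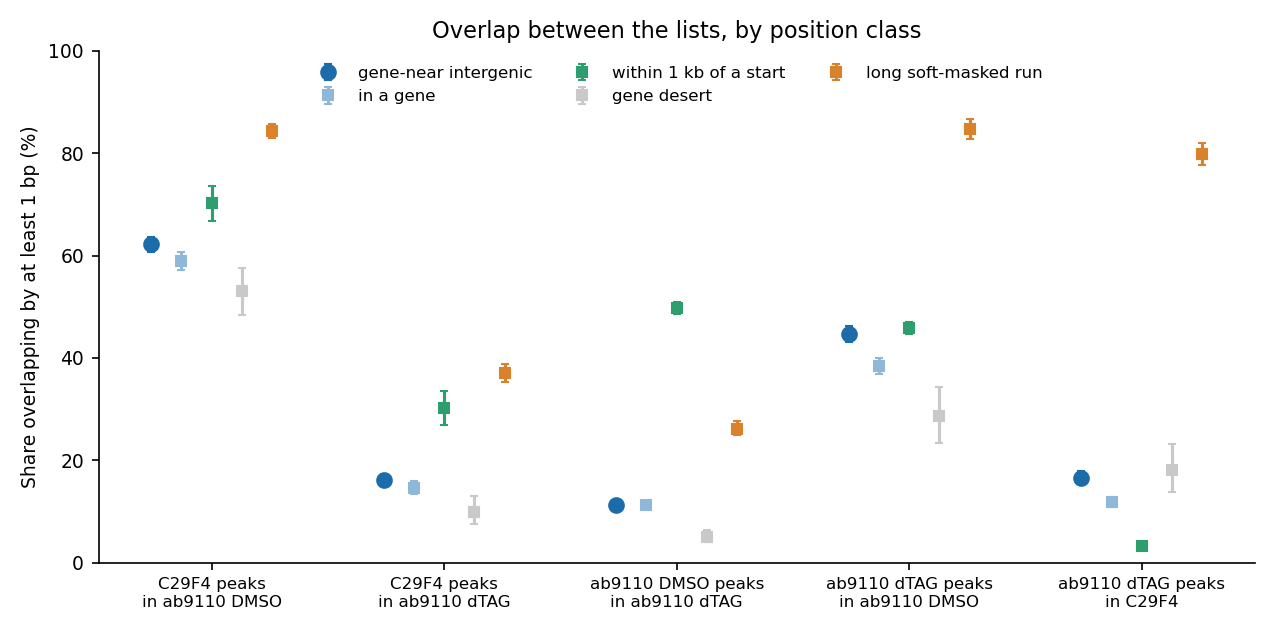
Share of peaks (y axis, percent, exact 95% counting intervals) that overlapped another list by at least 1 bp, for 5 pairs of lists (x axis) and 5 position classes (colours). For ab9110 DMSO peaks in ab9110 dTAG, gene-near intergenic and genic peaks both lay at 11.3%, and peaks within 1 kb of a start at 49.7%.

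At the 608 C29F4 members called in both ab9110 lists, the strongest overlapping peak had a median of 27 fragments (quartiles 21 and 35) in DMSO and 12 (10 and 16) in dTAG. The median fold was 5.36 (4.24 to 7.10) in DMSO and 4.04 (3.59 to 5.07) in dTAG. The fold was lower in dTAG at 429 of the 608 sites (70.6%). Coverage and list length differ between the libraries, so this count is no measure of a change in signal. Members called in neither ab9110 list had a median fold of 3.40 and 19 fragments and the 42 in dTAG alone 3.28 and 23.5, against 3.75 and 28 for those in DMSO and not in dTAG. Among the 808 C29F4 members with the highest fold (4.65 to 27.0), 83.7% overlapped a DMSO peak and 22.9% a dTAG peak. Among the 808 with folds of 2.89 to 3.33 the shares were 47.6% and 12.3%, and among the 807 lowest (1.80 to 2.89) they were 62.2% and 17.6%, so overlap did not rise steadily with fold.

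The individual sites show the size of these values. The member upstream of Gm49460 (chr15:72568200-72569641) had a fold of 27.0 from 143 fragments in C29F4 and 20.3 from 79 in ab9110 DMSO. A site 12399 bp upstream of Igsf21, which encodes a synaptic adhesion protein of the immunoglobulin superfamily, had 26.1 from 261 fragments and 10.8 from 81. The same rule named the members near Gm6979 (16.4 and 6.64) and Gm43218 (16.3 and 7.24). It admits only members without a dTAG or input call, so the lack of such calls at these sites is no result.

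Among the members called in all 3 ChIP lists that are named here, the site 11243 bp upstream of Ndn, an imprinted gene of the Prader-Willi region, had folds of 16.4 in C29F4, 12.2 in ab9110 DMSO and 4.06 in dTAG. The Tsg101-ps site had 14.2, 11.0 and 5.15, that near Gm43235 had 13.2, 5.25 and 5.28, and that near Gm11220 had 13.0, 9.63 and 3.86. The folds of the different lists stand side by side and are not ranked. The windows of these 4 sites were 48.8% soft-masked at Tsg101-ps and 100% at the other 3. Reads in repeats were assigned to 1 of several possible places, so the position of such a peak among like copies is uncertain.

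The strongest members called in 1 list alone, and those of the input, complete the named sites. The 3 strongest of 2096 in the dTAG list alone had folds of 6.55 upstream of 2310047D07Rik, 6.50 upstream of Gm47564 and 6.43 upstream of Plcl2, from 23, 18 and 16 fragments. The 3 strongest of 11901 in the ab9110 DMSO list alone, near Gm44301, Slc5a8 and Gm28563, had 14.5, 11.8 and 10.3, and each window was 100% soft-masked. The 3 strongest of 1482 in the C29F4 list alone had 8.41 near Gm9701, 8.34 near Gm11449 and 7.86 near Nebl, which encodes an actin-binding protein. The strongest input member, near Gm4916, had a fold of 29.9 from 60 fragments and overlapped no ChIP peak, and the next had 15.2 and 14.6.

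The members were then placed by their distance to the nearest transcript start. C29F4 members lay at a median of 19327 bp, ab9110 DMSO members at 16531 bp, ab9110 dTAG members at 13979 bp and input members at 18198 bp. C29F4 members were spread almost evenly over the sequence, with 3.64 per Mb at 1 to 5 kb and 3.23 at 50 to 100 kb. ab9110 DMSO members fell from 16.0 to 10.9 per Mb over the same range, and ab9110 dTAG members from 5.06 to 2.28. Input members changed little, from 0.548 to 0.544 per Mb. At 1 to 5 kb lay 14.8% of C29F4, 16.9% of ab9110 DMSO, 21.5% (20.2 to 22.8%) of ab9110 dTAG members and 14.7% of the sequence.

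Overlap between lists also went with distance. ab9110 DMSO members at 1 to 5 kb overlapped a dTAG peak in 16.0% (14.6 to 17.5%) of cases and those at 50 to 100 kb in 8.01% (6.96 to 9.17%). ab9110 dTAG members overlapped a DMSO peak in 49.1% and 37.8% of cases, and a C29F4 peak in 12.6% (10.5 to 15.1%) and 20.1% (16.7 to 23.9%). The share of C29F4 members in the ab9110 DMSO list stayed between 60.4% and 63.9% in all 5 distance bins.

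**Figure D3:**
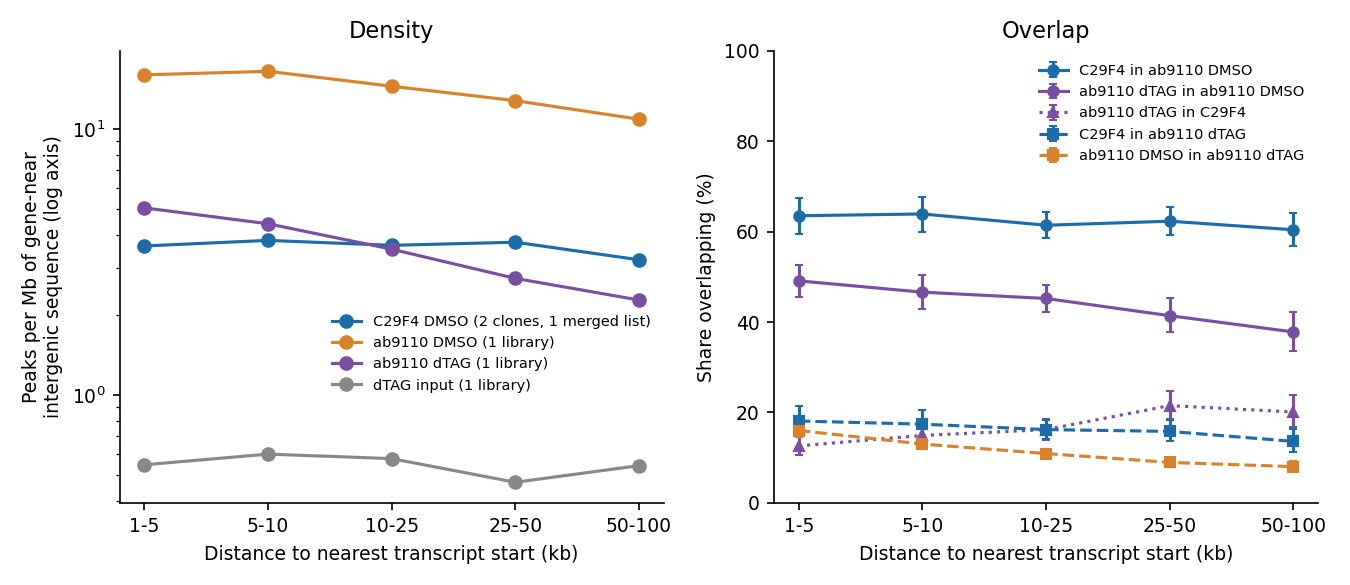
Left, members per Mb of gene-near intergenic sequence (log axis) in 5 bins of distance to the nearest transcript start. Right, share of members overlapping another list in the same bins, with exact 95% counting intervals. ab9110 dTAG members fell from 5.06 to 2.28 per Mb with distance, while C29F4 members stayed between 3.23 and 3.82.

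The side of the nearest gene made little difference: 56.2% of C29F4, 57.0% of ab9110 DMSO, 58.1% of ab9110 dTAG and 57.3% of input members lay upstream, against 56.3% of the sequence. The nearest start belonged to a protein-coding gene for 30.1% of C29F4, 32.8% of ab9110 DMSO and 37.4% (35.9 to 38.9%) of ab9110 dTAG members, against 27.9% of the sequence. Processed pseudogenes were the nearest gene of 30.7%, 27.4% and 25.2%, and lincRNA genes of 16.6%, 17.4% and 15.7%. At the limits of the rule, the C29F4 peaks just inside and just outside 1 kb lay 1009 bp from Gm24096 (fold 2.52) and 996 bp from Gprin1 (4.65). At 100 kb they lay 99951 bp from Gm48913 (2.89) and 100060 bp from Dpp6 (2.59), and at the run limit in runs of 4985 bp near Platr27 (2.58) and 5001 bp near 4930587A21Rik (3.27).

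Members were richer in G and C than the sequence they lie in. The median G+C content of the 201-bp windows was 45.3% in C29F4 (quartiles 40.8 and 49.8%), 47.8% in ab9110 DMSO, 47.3% in ab9110 dTAG and 46.3% in input members, against 40.8% in 5552232 consecutive windows of gene-near intergenic sequence. The mean number of CpG was 2.18, 2.36, 3.23 and 2.43, against 1.39. Windows with 5 or more CpG made up 12.9% of C29F4, 14.3% of ab9110 DMSO, 21.0% of ab9110 dTAG and 15.3% of input members. Input members, taken without pulldown, were above the sequence at large as well. The summit base was soft-masked in 39.3% of C29F4, 41.9% of ab9110 DMSO, 40.4% of ab9110 dTAG and 55.5% of input members.

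Short motifs were searched on both strands of the windows, 14 in all: octamer ATGCAAAT, ESRRB TCAAGGTCA, KLF GGGTGTGG, E-box CACGTG, E2F GGCGGGA, YY1 AANATGGC, PRDM14 GGTCTCTAA, AP-1 TGANTCA, TEAD CATTCCA, ZFP57 TGCCGC and, by name alone, the OCT4-SOX2 composite, the CTCF core, the REST core and NRF1. The arms of the REST element, TTCAGCAC (left) and GGACAGCT (right), were added after the motif shares were seen, and each overlaps the core in part. A match is a description of letters and not of binding.

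The REST core was the rarest motif in the sequence at large, in 0.00330% of windows, and was found in 47 C29F4 members (1.16%, 0.856 to 1.54%). It was in 48 ab9110 DMSO members (0.309%, 0.228 to 0.410%), in 0 of 3862 ab9110 dTAG members (upper limit 0.0955%) and in 0 of 609 input members (upper limit 0.604%). C29F4 peaks of the other classes held it in 1.55% (1.27 to 1.87%) of cases, near the share in members. For the other classes of ab9110 DMSO and ab9110 dTAG the shares were 0.324% and 0.0562%, so the order of the lists was not particular to members. Of the 47 C29F4 members, 27 were called in ab9110 DMSO and not in dTAG, 1 in both, 0 in dTAG alone and 19 in neither. The share in dTAG was 2.13% (0.0539 to 11.3%), beside 16.1% of all C29F4 members. The summit base was soft-masked in 3 of the 47, and 32 lay upstream of the nearest gene. The nearest start was that of a protein-coding gene for 20 of the 47 (42.6%, 28.3 to 57.8%), beside 30.1% of all C29F4 members.

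Single REST-core members, chosen after their values were seen, are shown to place the core within the window.
C29F4 member upstream of Lin28a, chr4:134020621-134020821: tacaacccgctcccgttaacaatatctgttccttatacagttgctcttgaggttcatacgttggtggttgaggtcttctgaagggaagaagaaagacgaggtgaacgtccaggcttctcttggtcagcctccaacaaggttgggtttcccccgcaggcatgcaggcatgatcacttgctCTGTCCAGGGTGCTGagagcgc
C29F4 member upstream of Vstm2l, chr2:157913344-157913544: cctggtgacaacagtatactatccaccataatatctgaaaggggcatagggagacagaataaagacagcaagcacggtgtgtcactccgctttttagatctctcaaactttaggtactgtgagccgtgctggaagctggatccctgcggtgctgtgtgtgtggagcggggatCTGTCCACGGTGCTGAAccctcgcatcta
C29F4 member upstream of Stmn2, chr3:8508121-8508321: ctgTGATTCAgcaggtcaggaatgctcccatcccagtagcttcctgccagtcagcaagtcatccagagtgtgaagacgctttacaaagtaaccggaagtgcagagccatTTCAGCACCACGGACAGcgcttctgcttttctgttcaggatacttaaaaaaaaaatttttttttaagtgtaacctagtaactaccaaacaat
Lin28a encodes an RNA-binding protein that blocks let-7 maturation in stem cells, and the site 1880 bp upstream had folds of 6.75 in C29F4 and 5.73 in ab9110 DMSO and was not called in dTAG. The Vstm2l site, the 1 called in both ab9110 lists, had folds of 9.27, 7.43 and 3.56 from 150, 50 and 11 fragments in C29F4, DMSO and dTAG. Stmn2 encodes a neuronal regulator of microtubules, and the site 1139 bp upstream was called with C29F4 alone, at a fold of 3.26. A second site upstream of Igsf21, at 36889 bp, had folds of 11.9 and 7.83 and also overlapped an input peak (fold 4.34). Over the 47 members the fold ran from 2.29 to 27.0, with a median of 3.93.

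The REST arms were highest in C29F4 and lowest among the ChIP lists in dTAG as well. The left arm was in 3.47% of C29F4, 1.77% of ab9110 DMSO, 0.777% of ab9110 dTAG and 1.15% of input members, against 0.658% of the sequence. The right arm was in 4.33%, 1.91%, 1.06% and 0.821%, against 0.717%. Peaks of the other classes had the same order of C29F4, ab9110 DMSO and ab9110 dTAG. They held the left arm in 2.93%, 1.38% and 0.786% and the right arm in 5.51%, 3.04% and 1.12% of cases. The core or an arm was found in 319 C29F4 members (7.90%, 7.09 to 8.78%) and in 71 ab9110 dTAG members (1.84%, 1.44 to 2.31%). Among C29F4 members the right arm was in 6.15% (5.11 to 7.33%) of those called in DMSO and not in dTAG and in 2.14% (1.14 to 3.63%) of those called in both. Few windows held 3 or more copies of CTGTCC at any spacing, a count that does not single out tandem arrays like that at Igsf21. They were those of 60 C29F4 members (1.49%, 1.14 to 1.91%) and 85 ab9110 DMSO members (0.548%, 0.438 to 0.677%). To these came 3 ab9110 dTAG members (0.0777%, 0.0160 to 0.227%) and 3 input members (0.493%, 0.102 to 1.43%). The share in the sequence at large was not counted.

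YY1, a zinc finger protein active at promoters and enhancers, had the most frequent motif in C29F4 members. It was in 627 of them (15.5%, 14.4 to 16.7%), against 4.47% of the sequence. The ab9110 DMSO members held it in 7.87% (7.45 to 8.30%) of cases, the ab9110 dTAG members in 4.63% (3.99 to 5.35%) and the input members in 7.22% (5.30 to 9.58%). Where the summit base was not masked the shares were 13.8%, 6.31%, 3.39% and 4.80%, against 3.88%, and where it was masked 18.3%, 10.0%, 6.47% and 9.17%, against 5.39%. The order of the 3 ChIP lists was thus the same inside and outside repeats. C29F4 members called in DMSO and not in dTAG held it in 19.3% (17.5 to 21.1%) of cases, those in both in 13.8% (11.2 to 16.8%) and those in neither in 11.8% (10.2 to 13.5%). Among the 808 C29F4 members of highest fold it was in 25.6% (22.6 to 28.8%), and among the 807 of lowest fold in 12.6% (10.4 to 15.1%). C29F4 peaks of the other classes held it in 32.9% of cases, those of ab9110 DMSO in 14.5% and those of ab9110 dTAG in 13.6%.

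**Figure D4:**
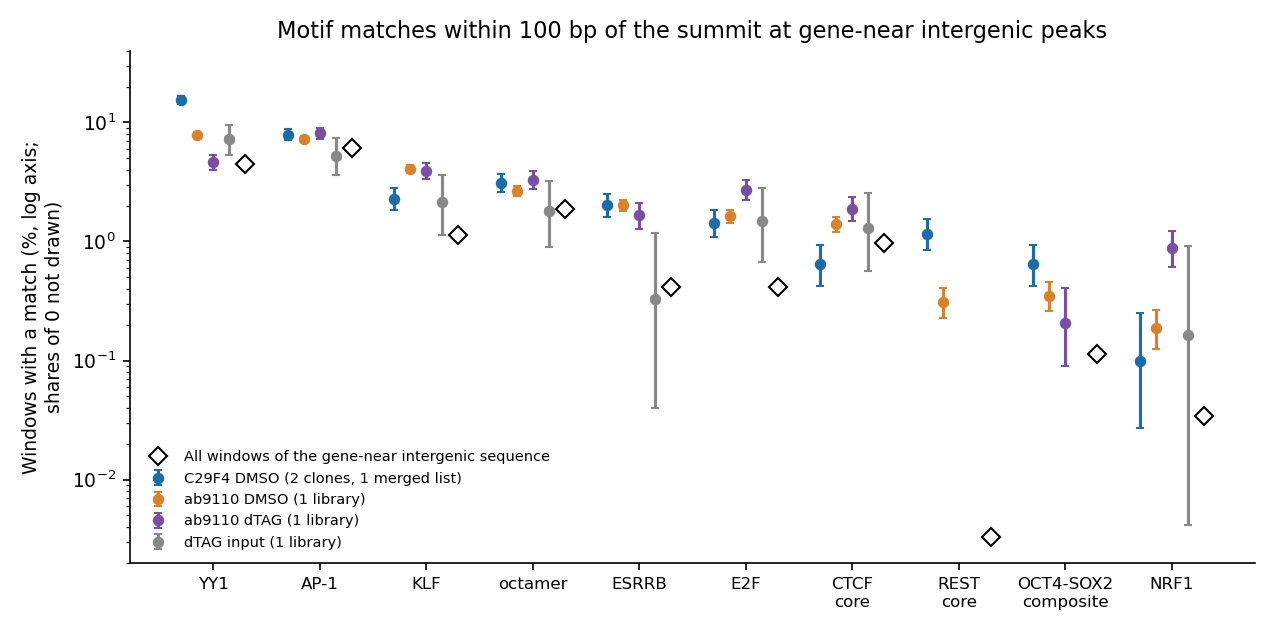
Share of 201-bp windows with a match (y axis, percent, log axis) for 10 motifs (x axis), in members of each list with exact 95% counting intervals and in all windows of gene-near intergenic sequence (diamonds). YY1 was in 15.5% of C29F4 members and 4.63% of ab9110 dTAG members, and the REST core was in no ab9110 dTAG member.

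The motifs of pluripotency factors were in small numbers of members. ESRRB, an orphan nuclear receptor of the naive state, had a match in 2.01% (1.60 to 2.49%) of C29F4, 2.02% of ab9110 DMSO and 1.66% (1.28 to 2.11%) of ab9110 dTAG members, against 0.328% (0.0398 to 1.18%) of input members and 0.412% of the sequence. The intervals of C29F4 and ab9110 dTAG overlapped. The OCT4-SOX2 composite was in 26 C29F4 members (0.644%, 0.421 to 0.942%), 54 ab9110 DMSO members (0.348%) and 8 ab9110 dTAG members (0.207%, 0.0895 to 0.408%), against 0.113% of the sequence. KLF was in 2.28%, 4.09% and 3.94% in the same order, against 1.14%, and the octamer in 3.10%, 2.64% and 3.31%, against 1.89%. Input members held KLF in 2.13% of cases, near the C29F4 share, and the octamer in 1.81%. PRDM14 was near the level of the sequence (0.142%) in every list.

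NRF1, E2F and the E-box had higher shares in members of the dTAG list than in those of the other lists. They were not particular to members, since the dTAG peaks of the other classes held them in 6.53%, 9.73% and 6.28% of cases. NRF1, an activator of CpG-rich promoters, had a match in 0.0991% of C29F4, 0.187% of ab9110 DMSO and 0.880% (0.610 to 1.23%) of ab9110 dTAG members, against 0.0344% of the sequence. E2F was in 1.44%, 1.64% and 2.72%, against 0.412%, and the E-box in 2.06%, 2.65% and 3.60%, against 1.71%. Input members held NRF1 in 0.164%, E2F in 1.48% and the E-box in 0.821% of cases, so for E2F near the C29F4 share. The CTCF core was in 0.644% (0.421 to 0.942%) of C29F4, 1.39% (1.21 to 1.59%) of ab9110 DMSO and 1.89% (1.48 to 2.37%) of ab9110 dTAG members, against 0.963% of the sequence, and the intervals of both ab9110 lists overlapped. The mean CpG count of the windows rose in the dTAG list as well, and its part in these shares was not tested. TEAD was in 3.81%, 5.15% and 4.95%, against 3.38%, and ZFP57 in 2.11%, 2.39% and 3.06%, against 0.956%. The dTAG peaks of the other classes held ZFP57 in 11.8% of cases. Input members held the CTCF core in 1.31%, TEAD in 1.97% and ZFP57 in 1.97%. AP-1 lay between 5.25% and 8.16% in all 4 lists, against 6.06%.

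The REST and YY1 matches of C29F4 members lay close to the summits. Within 500 bp, 61 C29F4 members held a REST core, at a median of 58 bp from the summit and with 50 within 100 bp. For YY1 the median distance was 107 bp in 1334 C29F4 members, 180 bp in 3719 ab9110 DMSO members and 226 bp in 734 ab9110 dTAG members. The nearest YY1 match lay within 50 bp of the summit in 28.9%, 17.6% and 11.9% of these. The CTCF core showed the reverse order, with 4.88%, 10.4% and 12.4% within 50 bp.

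**Figure D5:**
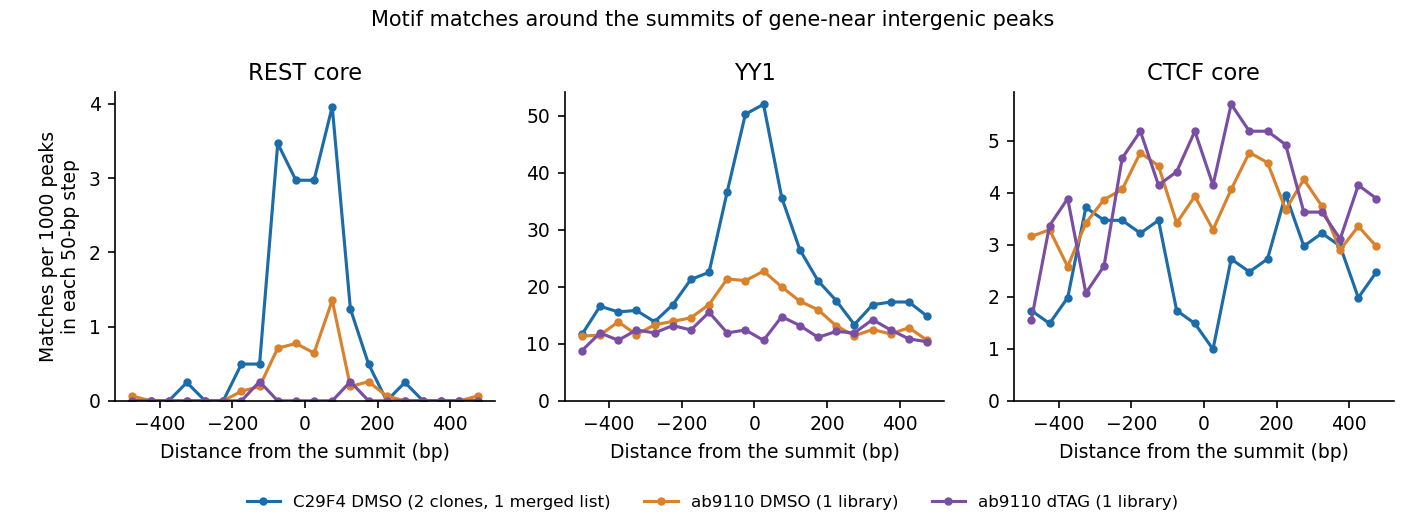
Matches per 1000 members in each 50-bp step (y axis) by distance from the summit (x axis) for the REST core, YY1 and the CTCF core in the 3 ChIP lists. REST and YY1 matches of C29F4 members were densest within 100 bp of the summit, YY1 matches of the ab9110 dTAG list were level, and CTCF matches of C29F4 members were sparse at the summit, with 10 of 205 nearest matches within 50 bp.

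Genes near the members were described with 6 lists of genes tied to mESC biology and to EHMT2, and a gene was counted when at least 1 member was nearest to it. Among 21938 protein-coding genes, 4.56% had a C29F4 member, 15.6% an ab9110 DMSO member, 5.62% an ab9110 dTAG member and 0.775% an input member. Of 30 pluripotency genes, 6 had a C29F4 member (20.0%, 7.71 to 38.6%), 22 an ab9110 DMSO member (73.3%, 54.1 to 87.7%), 14 an ab9110 dTAG member (46.7%, 28.3 to 65.7%) and 2 an input member (6.67%, 0.818 to 22.1%). Per Mb of their gene-near intergenic sequence these genes had 61.7 ab9110 DMSO and 28.8 ab9110 dTAG members, against 16.3 and 4.64 for all protein-coding genes. The input, taken without pulldown, was higher there as well, at 4.11 against 0.565 per Mb, from 3 members. The values for C29F4 were 9.59 and 3.91, from 7 members. Those members lay near Tcl1, an activator of AKT (2 members, strongest fold 3.96), Dppa5a (2.76), Fgfbp1 (3.81), Klf5 (2.59), Lefty1, a Nodal antagonist (2.97), and 1 further gene of the list. Of the named genes, 1 of the 2 C29F4 members at Tcl1 and those at Fgfbp1 and Lefty1 were also called in both ab9110 lists, and Fgfbp1 had 1 input member as well.

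Of 44 genes for neuronal adhesion and channels, 8 had a C29F4 member (18.2%, 8.19 to 32.7%), 14 an ab9110 DMSO and 6 an ab9110 dTAG member. Per Mb of their gene-near intergenic sequence there were 5.00, 14.1 and 3.64 members, against 3.91, 16.3 and 4.64 for all protein-coding genes. These rates rest on 11, 31 and 8 members and have no interval, so a difference from all genes is not shown. At the 5 genes named by the rule, the highest fold was 8.66, 68141 bp from Rbfox1, a neuronal splicing factor, and both C29F4 members there were called in ab9110 DMSO and neither in dTAG. Dscam, which encodes a neuronal adhesion protein, had 2 C29F4 members with a highest fold of 5.38, and Csmd1 had 2 with 3.23. Of 61 germ layer regulators, 2 had a C29F4 member, among them Tfap2c (2 members), 10 had an ab9110 DMSO and 7 an ab9110 dTAG member. Per Mb there were 2.29, 13.7 and 5.33, from 3, 18 and 7 members.

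Of 43 genes expressed in the 2-cell embryo, 39 were matched, and 4 had a C29F4 member: Pramel7 (2 members, highest fold 4.74), Gm4340 (4.45), Tdpoz2 (4.96) and Zfp352 (3.45). There were 8 such genes with an ab9110 DMSO member and 1 with an ab9110 dTAG member. Per Mb they had 9.15 C29F4, 14.6 ab9110 DMSO and 1.83 ab9110 dTAG members, from 5, 8 and 1. Several of these genes have near-identical copies, so reads there can be split between loci. Of 36 genes of EHMT and H3K9 methylation, only Atf7ip, a partner of SETDB1, had a C29F4 member (fold 3.00), while 5 had an ab9110 DMSO and 3 an ab9110 dTAG member. Per Mb these 36 genes had 3.98, 27.9 and 11.9 members in the same order, from 1, 7 and 3. Of 31 germline genes, 0 had a C29F4 or ab9110 dTAG member and 3 an ab9110 DMSO member (10.4 per Mb, from 3 members). For C29F4 the intervals of the pluripotency and neuronal lists lay above the 4.56% of all protein-coding genes, and those of the other 4 lists included it. These shares take no account of the length of sequence around the genes.

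The protein-coding gene nearest to the most C29F4 members was Hpgd, which encodes a prostaglandin-degrading dehydrogenase, with 12 C29F4, 6 ab9110 DMSO, 3 ab9110 dTAG and 0 input members in 0.0990 Mb. The strongest had a fold of 5.91, and 5 of the 12 were called in ab9110 DMSO. Gm17521 had 9, Smarcad1, a chromatin remodeller, 6, and A830018L16Rik 5 C29F4 members. Col18a1, Gm10358, March1, Pdk4, Satb1 and Stk17b had 4 each. At Pdk4, a kinase that restrains pyruvate dehydrogenase, the strongest member had a fold of 12.9, and at Satb1, an organiser of chromatin loops, 9.09. All 4 C29F4 members at each of these 2 genes were called in ab9110 DMSO and 1 in dTAG.

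Hpgd, Gm10358 and March1 lie on chromosome 8, which had more members per Mb than any other autosome in every list. There were 7.84 C29F4 members per Mb, against 2.71 to 4.97 on the other 18 autosomes (median 3.78). The values were 20.2 against 12.7 to 18.5 for ab9110 DMSO, 5.04 against 2.90 to 4.59 for ab9110 dTAG and 0.839 against 0.328 to 0.791 for the input. The median background at members of chromosome 8 was 1.53 in the input list, against 1.03 on the other autosomes, 3.70 against 2.93 in ab9110 DMSO, 2.12 against 1.78 in ab9110 dTAG and 5.56 against 6.14 in C29F4. Of the 383 C29F4 members on chromosome 8, 42.0% (37.0 to 47.2%) overlapped an ab9110 DMSO peak, and without this chromosome the share of C29F4 members doing so was 64.3%. The part of the background in the count on chromosome 8 was not tested. Chromosome X held 1.21 C29F4, 4.26 ab9110 DMSO and 1.05 ab9110 dTAG members per Mb.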

How the data were processed

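HA ChIP-seq and input libraries of EHMT2-dTAG mESCs were analysed as 4 peak lists, with groups taken from the labels (antibody, treatment, ChIP or input). The authors aligned reads to mm10 with STAR 2.7.10 in a repeat-aware way, removed duplicates with Picard 2.26.0 and blacklisted regions, called peaks with MACS2 2.2.6 on fragments and kept q-values under 0.05 (versions from the submitters' processing notes). The deposited fold is a ratio at the summit, which the authors' peak caller forms as (fragments + 1) over (background + 1). The deposited −log10 p and −log10 q refer to the same position. C29F4 replicates were merged by the authors before calling, and separate replicate lists and the other inputs were not analysed here.

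Summits were placed on GENCODE M21 and the GRCm38 RefSeq assembly (the assembly of mm10). Peaks off chromosomes 1 to 19, X and Y (3 ab9110 DMSO, 1 ab9110 dTAG, 4 input) were left out, so shares of a list are over 11010, 40813, 16323 and 2046 peaks. The background for positions was every base, and for motifs every consecutive 201-bp window, of the gene-near intergenic sequence. Summit fragments and background were solved from the fold and the Poisson p-value, and the most frequent background was taken as the mean coverage (the C29F4 list left 3 peaks unsolved). The scaled alternative multiplied the ab9110 DMSO fragments and background to 58.3%, the ratio of mean coverages, and kept the 12355 peaks whose −log10 p reached 4.28, the lowest of the dTAG list. Scripts ran in Python 3.11.15 with numpy 2.4.6, pandas 2.3.3 and scipy 1.17.1, and overlaps, solved fragments and motif searches were tested on simulated data, overlaps also against bedtools 2.31.1.

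The members, gene lists, motifs and named-site rules were chosen with earlier results of these data known. The rules named the 5 C29F4 members of highest fold in ab9110 DMSO and in neither dTAG nor input, the 5 in all 3 ChIP lists, the 3 strongest in each list alone and in the input, the members at each limit, the 10 protein-coding genes nearest to the most C29F4 members and up to 5 genes per gene list. A few of the items these rules chose are not reported here. No p-values were computed, because each condition has 1 list. Peaks are not independent samples.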

Additional observations from a re-analysis of the deposited data

How the results depend on the processing

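No paired analysis was possible because the C29F4 replicates 4 and 5 are merged into 1 list and the lists give no value per replicate, so no replicate could be left out either. Of 48 recomputed shares, 9 stayed within the 95% interval of the reported value and 39 left it. The member share was smallest in ab9110 dTAG in each alternative but the one with protein-coding genes alone. Why values moved was not tested, beyond what an alternative does by construction, such as shortening a list.

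The share of peaks that are members, in the order C29F4, ab9110 DMSO, ab9110 dTAG and input, was 35.5%, 33.8%, 15.3% and 30.3% with q-values under 0.001. It was 26.0%, 30.1%, 21.1% and 20.5% with protein-coding genes alone, where the input was the lowest, 30.2%, 32.1%, 20.6% and 23.9% up to 50 kb from a start, and 35.4%, 37.0%, 22.9% and 24.9% with runs of 2 kb or more left out.

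The next shares are, in order, C29F4 members overlapping DMSO, C29F4 members in DMSO and not in dTAG, DMSO members overlapping dTAG and dTAG members overlapping DMSO. They were 54.6%, 44.8%, 7.08% and 39.0% with an overlap of at least 50%, 48.8%, 39.9%, 8.42% and 33.9% with summits at most 250 bp apart, and 52.4%, 44.6%, 13.5% and 70.3% with q-values under 0.001. With ab9110 lists of equal size they were 48.2%, 34.1%, 23.9% and 35.2%, and with the DMSO list scaled to the dTAG coverage 42.7%, 29.3%, 28.7% and 31.4%. With protein-coding genes alone they were 64.4%, 48.3%, 13.9% and 48.7%. Leaving out chromosome 8, chosen after seeing the data, gave 64.3%, 48.6%, 11.3% and 44.8%. Of 26 alternatives of base composition and motif shares, 10 stayed within their interval or SD. Windows of 200 bp on each side gave REST-core shares of 1.46%, 0.387% and 0.0259% and YY1 shares of 21.5%, 12.7% and 8.42% in the ChIP lists, in the same order as before.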
